A study of Homo sapiens with 4 samples.

Results

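Desmosomes are the spot-like junctions that tie the keratin filaments of neighbouring epithelial cells together, and the 10 genes described here encode their cadherins and plaque proteins: DSG2, DSG3, DSC2, DSC3, JUP, PKP1, PKP2, PKP3, DSP and PPL. They were taken by symbol from a table of 48162 genes, and each symbol matched 1 gene. The RNA came from MDA-MB-453, a human breast cancer cell line. Of 4 libraries, 2 were from wild-type cells (WT) and 2 from cells labelled TMEM9 KD, in which TMEM9, a gene for a membrane protein of lysosomes and endosomes, was reduced. No treatment or time is given for either group. The sources used here do not give how TMEM9 was reduced, or whether the TMEM9 KD cells were a pool or a clone.

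In a desmosome, the desmogleins (DSG) and desmocollins (DSC) span the membrane and bind their partners on the next cell through calcium-dependent repeats. Inside the cell their tails bind plakoglobin, encoded by JUP, and the plakophilins (PKP), which in turn hold desmoplakin, encoded by DSP, and desmoplakin grips the keratin filaments. DSG2, DSC2 and PKP2 are the forms usually found in simple epithelia, while DSG3, DSC3 and PKP1 are typical of stratified epithelia such as skin.

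Library totals ran from 15323843 to 18517337 counts. TMEM9 itself took 1120 and 1497 counts in the WT libraries and 51 and 78 in the knockdown libraries, a log2 fold change of -4.37 (SE 0.126, edgeR quasi-likelihood adjusted p = 4.12e-52). Levels are given as CPM, which is counts scaled to the library total and to its TMM factor, and a called gene is one with an adjusted p under 0.05 over the 14923 genes tested. Of those genes, 57.7% were called, 28.7% higher and 29.0% lower in TMEM9 KD, and their median log2 fold change was 0.01. The labels do not state that libraries of a group are separate cultures, so every p-value rests on a spread between libraries that may be technical. With 2 libraries against 2, an exact permutation test of a single gene cannot go below p = 0.333, so the calls rest on the spread shared across genes in the edgeR model.

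The labelled line was checked against markers. Among luminal and apocrine genes, ERBB2 was present (63.7 ± 0.105 CPM in WT, SD, n = 2), but PIP was at 0 in every library, SPDEF had at most 2 counts and TFF3 at most 1. The basal epithelial factor TP63 stood at 155 ± 0.82 CPM in WT, and KRT19, a luminal keratin, had 1 to 6 counts in a library. The series text calls the profiles retinal, while all sample labels name the breast line. Of 8 photoreceptor genes 2 were tested, and GNAT1 was at 0 in every library. The cone opsin gene OPN1SW had 13.04 and 13.07 CPM in WT and 4.95 and 6.07 CPM in TMEM9 KD, and was called lower (log2 fold change -1.24, SE 0.17, edgeR adjusted p = 7.24e-10).

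Of the 10 members, 5 were lower in TMEM9 KD, 0 were higher, 2 were tested and not called, and 3 had too few counts to be tested. The lower genes were JUP, DSP, PPL, PKP2 and DSG3. DSG2 and PKP3 were not called. The background for this count is 57.7% of all tested genes called, with 29.0% lower and 28.7% higher. DSG3 and PKP2 passed the filter on low counts through WT alone, since only there did both libraries reach 10 counts, so for these 2 the choice of tested genes itself favours a lower value. All 7 tested members had TMEM9 KD libraries below both WT libraries, beside 77.6% of all tested genes whose groups did not overlap in either direction. Tested against a change of 1.5-fold, 3 members were lower, DSP, PKP2 and DSG3, beside 11.3% of all tested genes. With a filter of at least 5 CPM on average, which leaves out PKP2 and DSG3, 3 members were lower, JUP, DSP and PPL, beside 31.6% of the genes tested. Summed over the 10 members, the level was 673 and 679 CPM in WT and 492 and 502 CPM in TMEM9 KD. JUP and DSG2 made up most of this sum. The mean of JUP was 326 CPM in WT and 203 CPM in TMEM9 KD, and that of DSG2 230 and 213 CPM. In bulk RNA, fewer cells of a type and less RNA per cell cannot be told apart.

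**Figure D1:**
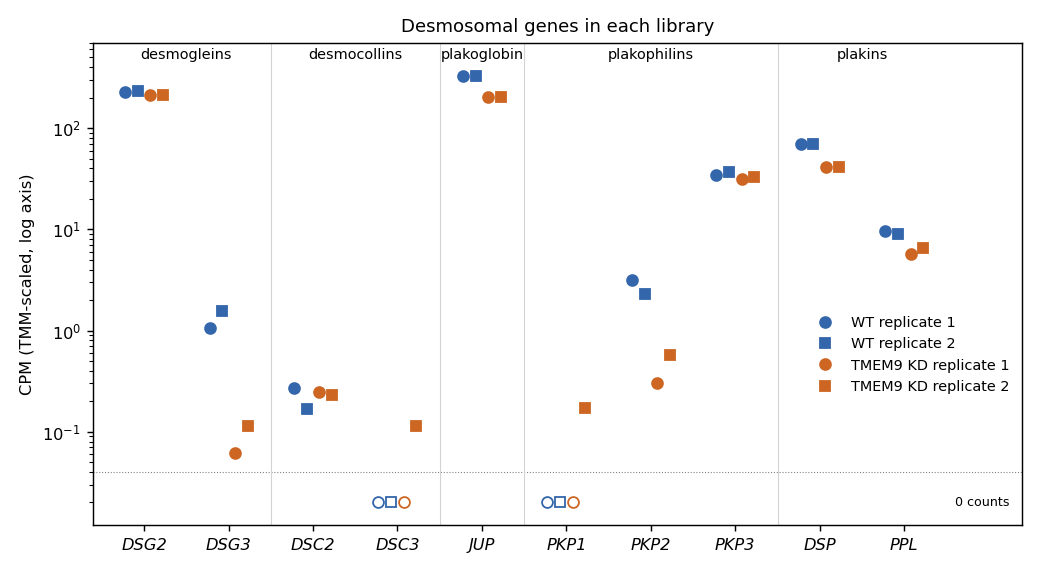
Level of the 10 desmosomal genes in each of the 4 libraries, grouped by role, with CPM on a log axis and open symbols below the dotted line for libraries with 0 counts. JUP and DSP sit lower in TMEM9 KD with replicates close together, DSG2 and PKP3 lie near their WT levels, and DSG3 and PKP2 fall from low levels.

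Desmoglein 2 carried nearly all counts of the desmosomal cadherins. DSG2 (ENSG00000046604, chromosome 18) had 228 and 232 CPM in WT and 212 and 214 CPM in TMEM9 KD. The groups did not overlap, but the gap was small. The mean was 230.1 ± 2.93 CPM in WT and 213 ± 1.64 CPM in TMEM9 KD (SD, n = 2), a log2 fold change of -0.11 (SE 0.0597, edgeR quasi-likelihood adjusted p = 0.106). Left without TMEM9 KD replicate 2, the same comparison was called, with a log2 fold change of -0.13 and an edgeR adjusted p of 0.012. Whether the authors' counting used strand is unknown, and an annotated antisense gene, DSG2-AS1, took 4 to 13 counts in a library.

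DSG3, a desmoglein of stratified epithelium and the antigen of pemphigus vulgaris, was at the low end of detection and lower in TMEM9 KD. DSG3 (ENSG00000134757, chromosome 18) had 16 and 28 counts in WT and 1 and 2 in TMEM9 KD, or 1.07 and 1.56 CPM against 0.0611 and 0.115 CPM. Both TMEM9 KD libraries were under both WT libraries. The edgeR fit gave a log2 fold change of -3.80 (SE 0.723, adjusted p = 3.89e-06). On library totals, the 44 counts of WT and 3 of TMEM9 KD made the WT level 14.3 times the other, with a 95% counting interval of 4.59 to 72.1. Per kilobase of exon, DSG3 made up 0.523% and 0.746% of the sum of both desmogleins in WT and 0.0323% and 0.0599% in TMEM9 KD, with DSG2 as the rest.

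The desmocollins, partners of the desmogleins in the adhesive interface, were near or at the limit of detection. DSC2 (ENSG00000134755, chromosome 18) had 4 and 3 counts in WT and 4 and 4 counts in TMEM9 KD. DSC3 (ENSG00000134762, chromosome 18) had 0 and 0 counts in WT and 0 and 2 in TMEM9 KD. Neither was tested, and no difference was detectable at this depth. A limit of 3 counts lies between 0.162 and 0.196 CPM in these libraries. In the same libraries DSG2 took 3409 to 4173 counts.

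DSG1, DSG2, DSG3 and the DSC genes lie side by side on chromosome 18, where the order in GENCODE 29 runs from CDH2 through DSC3, DSC2, DSC1, DSG1, DSG4, DSG3 and DSG2. The windows of 250 bases before their starts in RefSeq (GRCh38.p14) were compared, because the neighbours DSG2 and DSG3 sat at very different levels and only one of them was called. Of the 10 members, 7 had a window. The DSG2 window was 75.2% G and C with 26 CpG, against 42.8% and 4 CpG in DSG3. The median over 35114 such windows was 58% G and C. Bases just after the RefSeq start of DSG3 were found in no GENCODE transcript of that gene, unlike those of DSG2, DSG1 and DSP. Whether the DSG3 window precedes the transcripts that were counted is therefore unknown. The DSG1 and DSG3 windows share a run of 20 bases that no other window of the table holds, shown in capitals in the sequences of DSG3 and DSG1, while the next longest run shared by any pair of the desmosomal windows compared was 12 bases. In DSG2 and DSP the capitals mark CAGGTG, an E-box, of which each full window holds 1 more in the stretch left out. Where an annotated exon of GENCODE 29 overlapped a window, the sequence stops before it. The printed stretches are chr18:31447491-31447740 for DSG3, chr18:31317910-31318088 for DSG1, chr18:31497927-31498042 for DSG2 and chr6:7541421-7541574 for DSP, all on the plus strand.
DSG3: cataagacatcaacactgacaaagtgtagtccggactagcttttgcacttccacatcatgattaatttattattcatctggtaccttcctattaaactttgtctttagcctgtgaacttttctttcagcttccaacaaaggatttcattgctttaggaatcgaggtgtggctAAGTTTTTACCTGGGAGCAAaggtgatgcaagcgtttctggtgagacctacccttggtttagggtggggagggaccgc
DSG1: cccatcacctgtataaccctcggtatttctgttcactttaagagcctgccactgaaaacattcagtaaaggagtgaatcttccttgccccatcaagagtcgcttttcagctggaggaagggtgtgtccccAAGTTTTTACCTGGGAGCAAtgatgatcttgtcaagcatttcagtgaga
DSG2: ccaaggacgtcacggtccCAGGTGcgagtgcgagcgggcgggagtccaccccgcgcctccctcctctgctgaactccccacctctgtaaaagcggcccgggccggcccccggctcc
DSP: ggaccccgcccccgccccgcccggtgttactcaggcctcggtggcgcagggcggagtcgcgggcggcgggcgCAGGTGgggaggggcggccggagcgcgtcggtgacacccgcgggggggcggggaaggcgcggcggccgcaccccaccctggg

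CAGGTG, searched on both strands, was found in the full windows of DSG2 and DSP, in window 2 of JUP and in window 1 of DSC2. The other windows of JUP and DSC2 and those of PKP1, DSC3 and DSG3 did not hold it, and 17.5% of all windows do. In DSG1, a match on the other strand, 245 bases before the start, is not in capitals. A p53-family half-site was found in the DSC3 and DSG3 windows and in 5.57% of all windows. GGGCGG, a GC box, was found in the windows of DSP (7 matches), DSG2 (2) and PKP1, in window 1 of JUP and in windows 1 and 2 of DSC2. It was in 42.6% of all windows, and the windows of DSG3 and DSC3 did not hold it. AACNGGTT and TGANTCA, held by 1.49% and 6.57% of all windows, were in no member's window. A match describes letters in a window and names no bound factor.

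The cadherin gene CDH2, next to the desmocollin end of the cluster, gave 131 and 134 CPM in WT and 239 and 243 CPM in TMEM9 KD. Its product, N-cadherin, is a cadherin of adherens junctions. CDH2 rose (log2 fold change 0.87, SE 0.0622, edgeR quasi-likelihood adjusted p = 4.61e-23), while B4GALT6, on the far side of DSG2, had 42.4, 44.3, 43.0 and 39.7 CPM in the same order of libraries and was not called (adjusted p = 0.524). Per kilobase, DSG2 exceeded CDH2 in WT at ratios of 1.40 and 1.39 and was under it in TMEM9 KD at 0.709 and 0.704. The genes AQP4, CHST9, TTR, SLC25A52 and DSG4 were at 0 in every library.

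**Figure D2:**
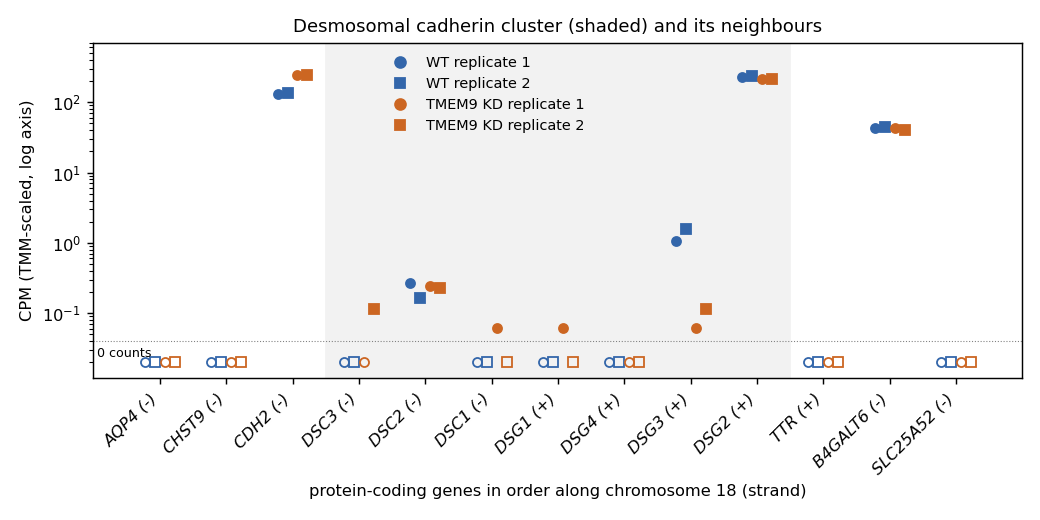
CPM on a log axis of each gene of the desmosomal cadherin cluster (shaded) and of its 3 nearest protein-coding neighbours on each side, in 4 libraries and in GENCODE 29 order, with open symbols below the dotted line for 0 counts. DSG2 is the abundant gene of the cluster and is nearly level. CDH2, next to the desmocollin end of the cluster, is higher in TMEM9 KD at 239 and 243 CPM.

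Plakoglobin had the highest level per kilobase of the members and was lower in TMEM9 KD. JUP (ENSG00000173801, chromosome 17), which joins cadherin tails to desmoplakin and also serves adherens junctions, had 327 and 326 CPM in WT and 201 and 205 CPM in TMEM9 KD. The WT libraries were almost equal and both TMEM9 KD libraries lay well below them. JUP fell by 37.7%, from 326 ± 0.495 to 203 ± 2.84 CPM (SD, n = 2), with a log2 fold change of -0.68 (SE 0.0583, edgeR quasi-likelihood adjusted p = 1.14e-18). Tested against a change of 1.5-fold, JUP was not called (adjusted p = 0.0701). Its relative CTNNB1, which encodes beta-catenin, went from 499 to 427 CPM and was also called lower (log2 fold change -0.22, edgeR adjusted p = 0.000236). The difference between the 2 changes was not tested. The per-kilobase ratio of JUP to CTNNB1 was 1.59 and 1.57 in WT and 1.11 and 1.19 in TMEM9 KD, and the groups did not overlap.

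Among plakophilins, which strengthen the plaque by clustering desmoplakin and cadherins, PKP3 had the highest level per kilobase of the 3 members. PKP3 (ENSG00000184363, chromosome 11) had 34.8 and 37.3 CPM in WT and 31.1 and 32.7 CPM in TMEM9 KD. The groups did not overlap, and the log2 fold change of -0.18 (SE 0.0976) was not called (edgeR adjusted p = 0.114). PKP2 (ENSG00000057294, chromosome 12), the plakophilin of simple epithelium and heart, had 47 and 41 counts in WT and 5 and 10 counts in TMEM9 KD. It fell 6.0-fold from 2.71 ± 0.61 to 0.439 ± 0.189 CPM, a log2 fold change of -2.59 (SE 0.459, edgeR quasi-likelihood adjusted p = 8.49e-07). PKP1 (ENSG00000081277, chromosome 1), the plakophilin of stratified epithelium, had 0 and 0 counts in WT and 0 and 3 counts in TMEM9 KD and was not tested.

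Per kilobase, PKP3 made up 95.4% and 96.8% of the 3 plakophilins in WT and 99.5% and 98.8% in TMEM9 KD. The share of PKP2 was 4.63% and 3.19% in WT and 0.524% and 0.93% in TMEM9 KD. These shares describe 4 libraries and carry no test.

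Desmoplakin and periplakin, plakins that connect the plaque to keratin or to the cornified envelope, were both lower. DSP (ENSG00000096696, chromosome 6) had 69.4 and 70.5 CPM in WT and 41.2 and 41.6 CPM in TMEM9 KD, so the gap was far wider than that between replicates. DSP fell by 40.8%, from 69.9 ± 0.797 to 41.4 ± 0.302 CPM (SD, n = 2), a log2 fold change of -0.76 (SE 0.083, edgeR quasi-likelihood adjusted p = 1.69e-13). PPL (ENSG00000118898, chromosome 16) had 9.63 and 8.96 CPM in WT and 5.74 and 6.59 CPM in TMEM9 KD. Both TMEM9 KD libraries of PPL were lower, with a log2 fold change of -0.59 (SE 0.179, edgeR quasi-likelihood adjusted p = 0.00343). Against a change of 1.5-fold PPL was not called (adjusted p = 0.741), whereas DSP was, at 0.0291. PPL overlaps SEC14L5 on the other strand, which took 2 to 7 counts in a library.

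JUP and DSP fell by similar shares. The per-kilobase ratio of JUP to DSP was 9.62 and 9.44 in WT and 9.99 and 10.1 in TMEM9 KD, so the ratio changed little while both fell. Set against DSG2, which was not called, DSP stood at 0.187 and 0.186 in WT and 0.119 in both TMEM9 KD libraries. JUP to DSG2 went from 1.79 and 1.76 to 1.19 and 1.20, and PPL to DSG2 from 0.034 and 0.0311 to 0.0218 and 0.0248. PKP3 to DSG2 gave 0.2498 and 0.2624 in WT against 0.2402 and 0.2495 in TMEM9 KD, a gap between the groups that was smaller than the spread within either. Among 10694 genes of at least 5 CPM, the patterns most like that of DSP were P3H2, OSMR and UBE2H. Their root mean square distances on the log2 CPM scale were 0.00447, 0.0121 and 0.0126 over the 4 libraries. With WT and TMEM9 KD as the only groups, this distance largely picks genes of similar log2 fold change, here -0.76, -0.77 and -0.77. Shared regulation with DSP was not tested.

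**Figure D3:**
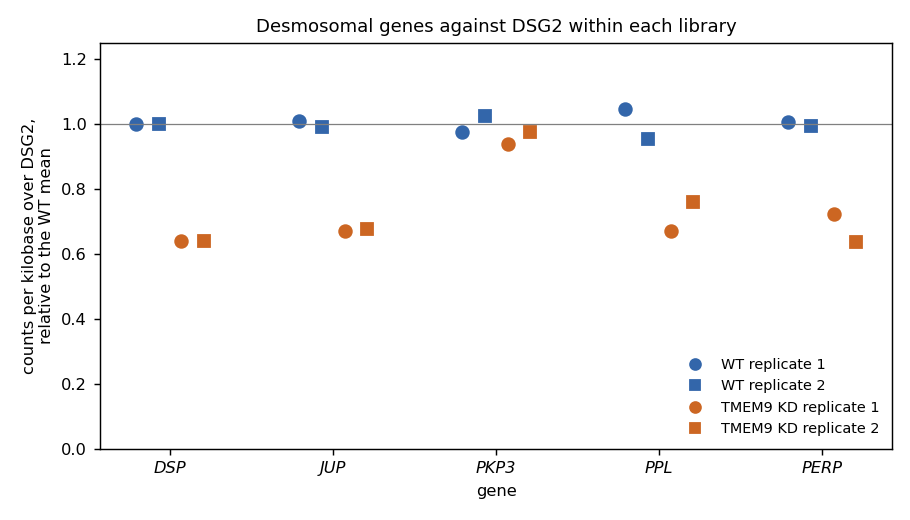
Counts per kilobase of DSP, JUP, PKP3, PPL and PERP over those of DSG2 in each library, relative to the WT mean, so 1 is the WT mean. PKP3 stays near 1 in all libraries, and JUP, DSP, PPL and PERP are lower in both TMEM9 KD libraries.

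In order of level per kilobase in WT, the members ran JUP (66.0 CPM per kilobase), DSG2 (37.2), PKP3 (9.52), DSP (6.93), PPL (1.21), PKP2 (0.385), DSG3 (0.238) and DSC2 (0.0174), with DSC3 and PKP1 at 0. In TMEM9 KD the first 6 kept this order, from JUP at 41.1 to PKP2 at 0.0624. Libraries of neighbouring genes among these 6 did not overlap in either group. Below PKP2 in TMEM9 KD, DSC2, DSG3, PKP1 and DSC3 rest on 2 to 8 counts over both libraries and cannot be ordered.

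Of 7 further desmosomal genes, 2 could be tested. PERP, a tetraspan membrane protein of desmosomes, had 308 and 310 CPM in WT and 206 and 184 CPM in TMEM9 KD, and fell with a log2 fold change of -0.67 (SE 0.0599, edgeR quasi-likelihood adjusted p = 1.44e-17). PKP4, a plakophilin-related protein of adherens junctions and desmosomes, went the other way, with 69.5 and 73.8 CPM in WT and 92.5 and 80.3 CPM in TMEM9 KD (log2 fold change 0.27, SE 0.0761, edgeR adjusted p = 0.00165). Per kilobase, the ratio of PKP4 to PKP3 was 0.793 and 0.787 in WT and 1.18 and 0.976 in TMEM9 KD, so PKP4 was under PKP3 in 3 of the 4 libraries and above it in TMEM9 KD replicate 1. Without WT replicate 1 the PKP4 call was lost (edgeR adjusted p = 0.113). Against a change of 1.5-fold neither PERP (0.122) nor PKP4 (1) was called. DSG1, DSC1, EVPL and CDSN had at most 3 counts in a library.

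Keratins form the filaments that desmoplakin holds. Over all tested genes, 28.7% were called higher and 29.0% lower. Of 12 listed keratins 10 were tested, 3 higher and 5 lower, with a median log2 fold change of -1.49 beside 0.01 for all tested genes. Of the 5 lower keratins, 4 (KRT14, KRT5, KRT6A and KRT16) reached 10 counts in both libraries of WT only, so the filter itself favours lower values in these counts and this median. The lower genes, KRT14, KRT5, KRT6A, KRT16 and KRT17, belong to basal or stratified epithelium. KRT14 took 185 and 307 counts in WT and 0 in both TMEM9 KD libraries, at least 160-fold lower if the TMEM9 KD group is set to a floor of 3 counts. KRT5 had 15 and 15 counts in WT and 0 in TMEM9 KD, at least 9.76-fold lower on the same floor. KRT6A in WT was 96.6 times its TMEM9 KD level (95% counting interval 26.4 to 803). That level rests on 0 and 2 counts, and the fitted log2 fold change of KRT6A was -5.61 without TMEM9 KD replicate 1 and -9.62 without TMEM9 KD replicate 2, beside -6.48 with all libraries. KRT15, also basal, was not called at -0.42 (edgeR adjusted p = 0.0977). KRT7 rose from 427 to 604 CPM (log2 fold change 0.50), KRT80 from 164 to 339 CPM (1.04), and KRT18, a keratin of simple epithelium, by 0.45 on the log2 scale. Its partner KRT8 was not called at -0.07 (edgeR adjusted p = 0.303). Keratin genes share sequence, and reads may be divided among them.

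Lists of other junction genes were read for comparison, beside 57.7% of all tested genes called, 28.7% higher and 29.0% lower. No list was tested against those shares. Of 7 plakins and hemidesmosome genes 6 were tested, 3 higher and 3 lower. ITGB4, the hemidesmosome integrin, fell with a log2 fold change of -5.29 and COL17A1 with -3.54, while plectin (PLEC) was higher at 0.36, a call that DESeq2 did not make (adjusted p = 0.0663). Of 14 adherens junction genes 11 were tested, 2 higher and 8 lower, with a median of -0.56, and 2 of these (CDH3 and NECTIN4) passed the filter through WT only. CDH3 fell by 4.90 on the log2 scale, and CDH1, E-cadherin, had 2 to 5 counts in a library and was not tested. Of 12 tight junction genes 8 were tested, 3 higher and 3 lower, with a median of -0.74, and 3 of these (TJP3, F11R and MARVELD2) passed through WT only. CLDN1 fell by 2.09 and OCLN, occludin, rose by 0.96 on the log2 scale. All 15 genes for desmosome assembly, calcium and shedding were tested, 8 higher and 5 lower. RND3, a regulator of the actin cytoskeleton, rose from 75.6 to 145 CPM (log2 fold change 0.94), and ADAM17, a protease that sheds desmoglein 2, fell by 0.55 on the log2 scale.

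**Figure D4:**
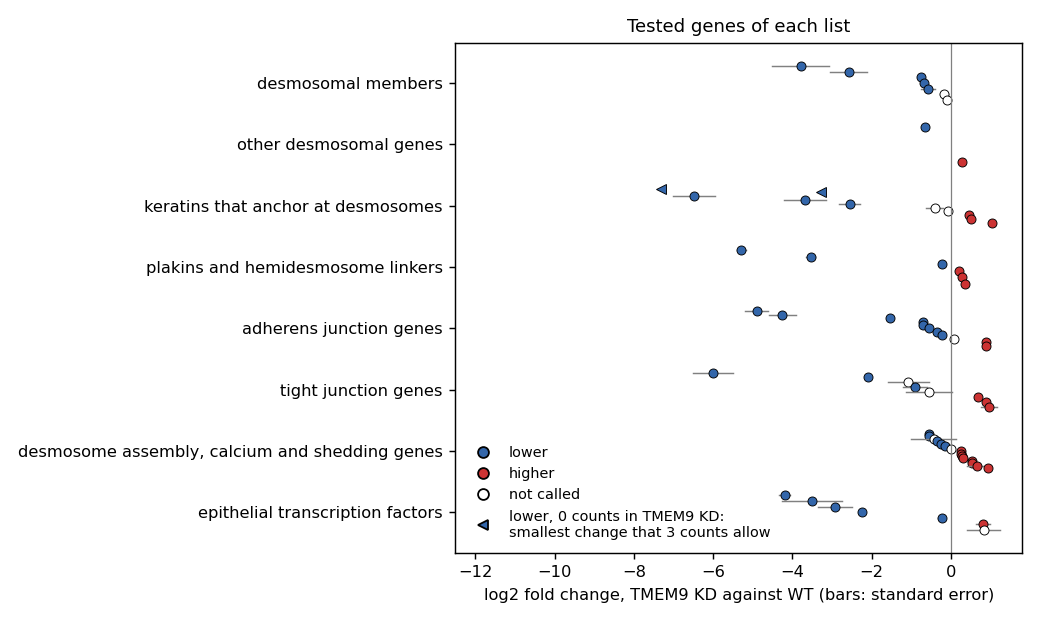
Log2 fold change of TMEM9 KD against WT, with standard error bars, for the tested genes of each list, coloured by call; triangles mark genes at 0 counts in TMEM9 KD, drawn at the change that 3 counts allow. The desmosomal members lie at or below 0, and the keratins spread from strongly lower to 1.04 higher.

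Marker lists were read beside these results and did not all move the same way. As background, 28.7% of all tested genes were called higher and 29.0% lower. Of 12 epithelial transcription factors 7 were tested, 5 lower and 1 higher, with a median of -2.26, including EHF at -4.20, and 2 of them passed through WT only. TP63 was at 32.5 ± 1.43 CPM in TMEM9 KD, a change of -2.26 on the log2 scale (SE 0.0771, edgeR adjusted p = 4.26e-46). All 10 basal and squamous markers were tested, 9 lower and 1 higher, where 4 of the lower genes (KRT5, KRT14, KRT6A and SERPINB3) had passed the filter through WT only. Their summed level was 701 and 714 CPM in WT and 364 and 383 CPM in TMEM9 KD. KRT5, KRT14, KRT6A and KRT17 are on this list and the keratin list, and TP63 on this list and the factor list. Luminal and apocrine markers summed to 729 and 738 CPM in WT and 709 and 738 CPM in TMEM9 KD, with 4 of 8 tested genes higher and 3 lower. Of 8 factors of epithelial to mesenchymal transition and splicing, 7 were tested, 3 higher and 3 lower. Among the higher genes, ESRP2 passed the filter through TMEM9 KD only, which favours a higher value. DESeq2 did not call ESRP2 (adjusted p = 0.204). Of 7 tested fibroblast markers 4 were higher and 3 lower, and LUM, among the higher genes, passed through TMEM9 KD only. The fibroblast markers summed to 1832 and 1866 CPM in WT and 1384 and 1564 CPM in TMEM9 KD. The direction of that sum was set by COL3A1, which had 947 and 966 CPM in WT and 27.7 and 34.5 CPM in TMEM9 KD, while COL1A1 had 815 and 832 CPM in WT and 1299.9 and 1473 CPM in TMEM9 KD. Leukocyte markers summed to 8.49 and 11.1 CPM in WT and 5.68 and 5.84 CPM in TMEM9 KD, with CD3E, LYZ and MS4A1 at 0, and endothelial markers to 12.5 to 15.3 CPM in a library. The part that any of these markers plays in the members' results was not tested.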

How the data were processed

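RNA-seq of 4 libraries of a cell line was analysed, 2 WT and 2 TMEM9 KD, grouped by the sample labels. The authors deposited raw counts, whole numbers per gene and library. Per the submitters' processing notes, CASAVA, Bowtie 0.12.2, hg19 and mm8 were used in roles that are not named. Counting tool, annotation and strand setting: not given in the sources used here. Symbols were matched for 45342 of 48162 genes, 304 of them from GENCODE 29, and 147 of 149 list entries matched. EPPK1 and PECAM1 were not analysed here. GENCODE 29, which is of another build, served for those symbols, exon lengths, gene order and the trimming of promoter windows.

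Counts were fitted with edgeR 4.0.16 (quasi-likelihood F test; R 4.3.3), with TMM factors, filterByExpr (minimum count 10, minimum total 15), group as the only term and 2 residual degrees of freedom. Benjamini-Hochberg adjustment ran over 14923 genes with a threshold of 0.05. SE was taken as the size of the log2 fold change divided by the root of F. Ratios and 3-count floors for genes near 0 used library totals, with exact Clopper-Pearson 95% intervals, which cover counting error only. The common biological coefficient of variation was 0.0498. Libraries of a group differed beyond sampling noise (chi-square over degrees of freedom 2.04 in WT and 4.82 in TMEM9 KD), and each was kept as a replicate. The fit was tested on simulated data. Some listed genes are not reported here.

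The members and lists were chosen with earlier results of these data known. Named genes are all members, TMEM9, and from each other list up to 4 called genes with the largest absolute change, besides defining markers at 0, the 3 nearest protein-coding genes on each side of the cadherin cluster, and the 3 genes most like DSP. KRT7, KRT8, KRT15, KRT17, KRT80, CTNNB1, CDH1, COL1A1, TJP3, MARVELD2, ERBB2, KRT19, SPDEF and TFF3 fall outside that rule and were named after their values were seen. Also outside it are the untested further desmosomal genes DSG1, DSG4, DSC1, EVPL and CDSN, and DSG2-AS1 and SEC14L5, which overlap members. Promoter sequences are from RefSeq, GRCh38.p14. Alternatives covered the scaling (library size alone, upper quartile, DESeq2 size factors), the filter, the test (DESeq2 1.42.0, limma 3.58.1 voom, edgeR against 1.5-fold), each library left out in turn, a replicate block, and removal of the 20 genes with most counts.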

Additional observations from a re-analysis of the deposited data

How the results depend on the processing

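Of 682 recomputed log2 fold changes of members and listed genes, 644 kept their direction and their side of the threshold, 37 kept direction but lost the call, 1 gained it and 0 changed direction. The number of members called lower was 5, and 3 with a mean of at least 5 CPM, a filter that leaves DSG3 and PKP2 out, and 3 when tested against 1.5-fold. Leaving out each library in turn gave 5 to 6. Over the whole table the 4283 higher and 4335 lower genes became 1111 and 1692 against 1.5-fold, and 3172 to 4173 higher and 3450 to 4405 lower without 1 library. DSP stayed between -0.77 and -0.68, JUP between -0.70 and -0.61, PPL between -0.70 and -0.49, DSG2 between -0.13 and -0.04 and PKP3 between -0.23 and -0.10 in log2 fold change over 14 alternatives; DSG3 stayed between -4.29 and -3.44, and PKP2 between -3.12 and -2.21. Without length scaling the mean plakophilin share of PKP2 was 7.02% in WT and 1.34% in TMEM9 KD, and that of PKP3 92.98% and 98.4%. The replicate block gave 4171 higher and 4266 lower genes and again 5 lower members. Deviations of same-numbered libraries from their group means had a correlation of 0.000474 across genes, so no shared deviation was seen. That value cannot tell whether libraries were prepared in pairs, which the labels do not state. With 3-count floors of up to 0.196 CPM, DSC2, DSC3 and PKP1 lie beyond what this depth can compare.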
